A study of Solanum lycopersicum with 18 samples.

Results

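The genes described here are those whose change in tomato leaves between 0 h and 8 h of NaCl differed between Micro-TOM-EX (EX) and Micro-TOM (MT). They were found by a single contrast, the 8 h minus 0 h change in EX minus the same change in MT, tested on log2(FPKM + 1), where FPKM is a fragment count scaled by transcript length and library depth. The contrast, called the interaction, used 12 of the 18 libraries, 3 in each of the groups EX 8 h, EX 0 h, MT 8 h and MT 0 h. Of 17953 genes with at least 1 FPKM in 3 or more of these libraries, 112 passed at a limma adjusted p under 0.05, which is 0.624% of those tested. In 74 of them (0.412%) the interaction was positive, called higher, and in 38 (0.212%) it was negative, called lower. On this scale, a higher gene rose more, or fell less, in EX than in MT.

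Micro-TOM is a small tomato variety kept as a model plant. The sources used here give neither what distinguishes Micro-TOM-EX nor the dose of NaCl. Plants of both materials grew in pots of soil in a greenhouse with 16 h of light, and RNA came from leaf. Untreated leaves taken at 8 h were not analysed here, so the effects of salt and of the time of day cannot be told apart in a change from 0 h to 8 h. Whether the 3 replicates in each group were taken from different plants is not stated. The p-values thus reflect the spread among these samples, which may be technical.

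Salt reaches a leaf first as an osmotic stress and later as an excess of sodium and chloride ions. Plants answer through abscisic acid, calcium signals and reactive oxygen, make protective proteins and sugars, and slow photosynthesis and growth. An interaction between material and treatment picks out the part of such a response that differs between the materials: a gene can differ because its level under treatment differs, because its level before treatment differs, or both.

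Each of the 12 libraries held 18.44 to 19.82 M fragments, as estimated from steps between low FPKM values. Libraries of a group correlated at 0.964 to 0.993 across genes, and at 0.979 to 0.993 without the libraries of replicate 2 at 0 h (EX0r2 and MT0r2), which stood apart. The same hour of the other material gave 0.947 to 0.982, and other hours 0.646 to 0.726. The summed level of 29 leaf mesophyll genes (small subunits of Rubisco, chlorophyll-binding proteins and carbonic anhydrase) was 6994 to 16937 FPKM in EX 8 h, 43768 to 46445 in EX 0 h, 6793 to 18680 in MT 8 h and 30127 to 44170 in MT 0 h, with at most 1 gene listed at 0 in a library. In bulk leaf RNA, fewer cells of a type and less RNA per cell cannot be told apart.

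The leaf response at 8 h was broad in both materials. In EX 12826 genes changed (71.4% of those tested), 35.4% up and 36% down, and in MT 12722 genes changed (70.9%), 37% up and 33.9% down. Of the 11327 genes that changed in both, 11298 did so in the same direction and 29 in opposite directions. Of those 29 genes, 16 were among the 112 that passed the interaction. Pearson's r between the 2 sets of log2 changes was 0.96 across genes, which are not independent replicates. The median standard error of the interaction over all tested genes was 0.234 on the log2 scale. Among genes that did not pass, 1922 had an unadjusted p under 0.05. A gene left out of the 112 is therefore not shown to respond alike.

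**Figure D1:**
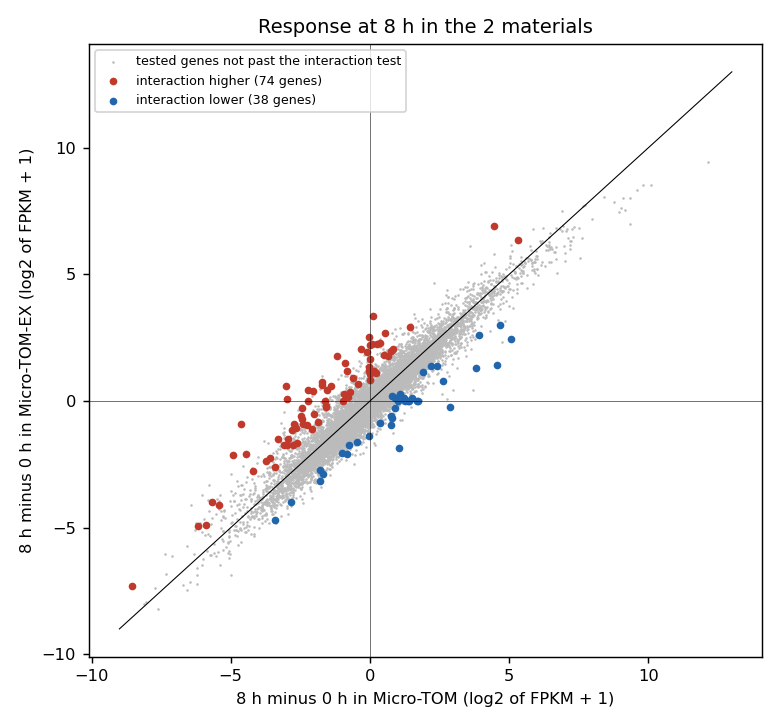
Change from 0 h to 8 h in Micro-TOM-EX (vertical axis) against the same change in Micro-TOM (horizontal axis), both in log2 of FPKM + 1, for the 17953 tested genes. The 74 genes with a higher interaction (red) lie above the diagonal of equal response and the 38 with a lower one (blue) below it, while the grey cloud of other genes follows the diagonal.

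The 112 genes fell into classes by the hour at which EX and MT differed. In 60 genes the materials passed as different at 0 h alone, in 35 at 8 h alone, in 13 at both hours and in 4 at neither. For comparison, 520 of all genes tested (2.9%) differed between EX and MT at 0 h, 1.42% higher and 1.48% lower in EX, and 242 (1.35%) at 8 h, 0.78% higher and 0.568% lower. The libraries of the materials did not overlap at 8 h in 76 of the 112 genes, against 20.3% of all tested, and at 0 h in 96, against 17.9%. The 112 were selected from these same libraries, so their larger shares follow from the selection and lend it no support. By direction of response, 26 of the 74 higher genes fell in both materials, and fell less in EX. Another 17 rose in EX without passing in MT, 13 fell in MT without passing in EX, 11 rose in EX and fell in MT, and 7 rose in both. Of the 38 lower genes, 13 rose in MT without passing in EX, 10 rose in both and 9 fell in both. A further 5 fell in EX and rose in MT, and 1 fell in EX without passing in MT.

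**Figure D2:**
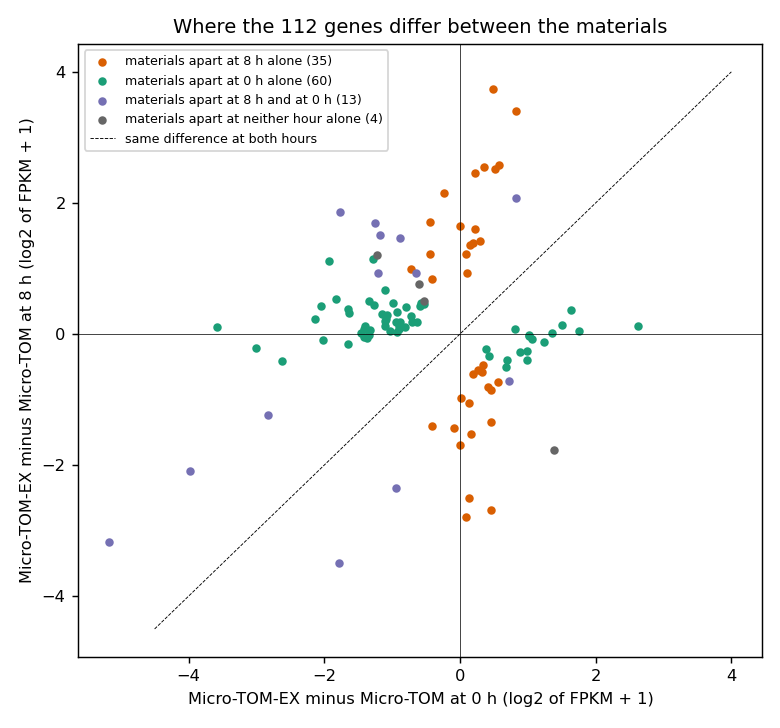
Difference Micro-TOM-EX minus Micro-TOM at 8 h (vertical axis) against the difference at 0 h (horizontal axis), in log2 of FPKM + 1, for the 112 genes, coloured by the hour at which the materials passed as different. The 35 genes apart at 8 h alone line up along the vertical axis, the 60 apart at 0 h alone along the horizontal axis.

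The count depended on single libraries. All 112 genes kept their direction when any 1 of the 12 libraries was left out, and 21 passed in each of those 12 fits. The number that passed ranged from 21 without MT0r3 to 148 without MT0r2, and it was 28 without EX0r3, 37 without MT8r2, 48 without MT8r1, 51 without EX8r1, 61 without EX0r1, 62 without EX8r2 and 67 without EX0r2. The 21 genes that passed without MT0r3 are the same 21. Without EX0r2 and MT0r2 together 159 passed, 84 of them among the 112. In the accounts below, a gene is said to pass in all 12 fits where it belongs to these 21; every other gene did not pass without MT0r3.

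Same-numbered EX and MT libraries deviated together at 0 h but not at 8 h. With the replicate number as a block within each hour, 37 genes passed, 27 of them among the 112, and 21 of the 37 were apart at 0 h alone. Of the 33 genes named by the rule for passing genes, 13 still passed (limma adjusted p = 0.0029 to 0.047): LOC101262262, LOC101251891, LOC101250373, LOC101245978, LOC101257443, LOC101268453, LOC101257927, LOC101263667, LOC101258158, DDTFR18, LOC101248690, LOC101264818 and LOC101246840. The other 20 did not pass with this block (limma adjusted p = 0.0501 to 0.117), at unchanged estimates.

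Of the 16 genes that changed in opposite directions, 11 rose in EX and fell in MT. The one with the lowest adjusted p encodes a glycine-rich RNA-binding protein (LOC101262262, chromosome 1), from a family that binds messenger RNA and is known in plants for responses to cold and osmotic stress. In the EX libraries it had 452, 362 and 491 FPKM at 8 h and 273, 294 and 294 at 0 h. In the MT libraries it had 133, 112 and 112 FPKM at 8 h and 975, 872 and 1086 at 0 h. The 4 groups did not overlap, and the order of the materials turned round: EX was above MT at 8 h and below it at 0 h. The interaction was 3.61 ± 0.196 (SE) on the log2 scale (95% interval 3.18 to 4.05, limma adjusted p = 8.5e-06), and it passed in all 12 fits.

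Wound-induced protein 1 (LOC101251891, chromosome 6), named for a transcript of injured potato tissue, had the same form. Its EX levels were 414, 241 and 442 FPKM at 8 h and 108, 116 and 84.9 FPKM at 0 h. Its MT levels were 78.3, 128 and 126 FPKM at 8 h and 191, 294 and 263 FPKM at 0 h. All EX libraries were above all MT libraries at 8 h and below them at 0 h. Here the interaction came to 2.96 ± 0.376 (SE) (limma adjusted p = 0.0066) and passed in all 12 fits. A cellulose synthase-like protein E6 gene (LOC101268453, chromosome 12), from a family of cell wall glycan synthases, passed as different between the materials at 8 h alone. EX leaves had 21.1, 17.4 and 24.2 FPKM at 8 h and 9.18, 8.72 and 7.87 FPKM at 0 h. MT leaves had 2.61, 3.23 and 2.17 FPKM at 8 h and 5.63, 5.85 and 4.79 FPKM at 0 h. The EX libraries lay above the MT libraries at both hours, but the gap at 0 h did not pass (limma adjusted p = 0.067). Its interaction of 2.00 ± 0.209 (SE) (limma adjusted p = 0.0022) passed in all 12 fits.

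A GDSL esterase/lipase gene (LOC101257443, chromosome 12), of a large family of lipid and ester hydrolases, differed at 0 h. The 3 EX libraries held 14.7, 19.4 and 17.1 FPKM at 8 h, and those of 0 h held 8.07, 12.4 and 8.79. The 3 MT libraries held 12.2, 11.9 and 13 FPKM at 8 h, and those of 0 h held 31.8, 54.6 and 45.2. The MT 0 h libraries stood above all others, and the interaction of 2.48 ± 0.278 (SE) (limma adjusted p = 0.0028) passed in all 12 fits. The abscisic acid receptor PYL4 gene (LOC101258963, chromosome 6), whose product binds the hormone and then blocks type 2C protein phosphatases, was also highest in MT 0 h. In the EX libraries it had 8.83, 6.05 and 8.45 FPKM at 8 h and 3.74, 3.84 and 3.31 at 0 h. In the MT libraries it had 5.27, 8.09 and 7.91 FPKM at 8 h and 10.4, 11.1 and 12.3 at 0 h. The materials overlapped at 8 h and not at 0 h. PYL4 had an interaction of 1.53 ± 0.241 (SE) (limma adjusted p = 0.022, at most 0.077 with 1 library left out). The 3-ketoacyl-CoA synthase gene LOC101246151 (chromosome 6), of an enzyme that lengthens fatty acids for cuticular wax, stood at 47.8 ± 2.57 FPKM in EX 8 h and 39.1 ± 1.36 FPKM in EX 0 h, and at 35.9 ± 4.31 FPKM in MT 8 h and 69 ± 8.15 FPKM in MT 0 h (means ± SD over 3 libraries, as for all such values). These levels gave an interaction of 1.21 ± 0.159 (SE) (limma adjusted p = 0.0087), which passed in all 12 fits. A thaumatin-like gene of the pathogenesis-related proteins (LOC104645134, chromosome 12) was at 16 ± 8.04 FPKM in EX 8 h and 4.74 ± 1.21 FPKM in EX 0 h, and at 2.75 ± 1.33 FPKM in MT 8 h and 5.66 ± 0.703 FPKM in MT 0 h, with EX8r3 the highest library. The interaction there was 2.38 ± 0.454 (SE) (limma adjusted p = 0.045, at most 0.12 with 1 library left out).

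The other genes that rose in EX and fell in MT, named after their values were seen, were 5PT1 (an inositol triphosphate phosphatase gene), LOC101262189 (a RABH1e-like small GTPase of vesicle traffic), LOC101260623 (RPM1-interacting protein 4) and the uncharacterized LOC101261000. Among the 11, LOC101262189 had the widest gap between the materials at both hours. Its EX levels were 2.14, 1.88 and 1.82 FPKM at 8 h and 0.75, 1.43 and 0.81 FPKM at 0 h. Its MT levels were 26.8, 19.9 and 31.3 FPKM at 8 h and 86.8, 49.9 and 78.7 FPKM at 0 h. It was low in every EX library and high in every MT library, so its rise in EX was within a low range. Its interaction was 1.99 ± 0.312 (SE) (limma adjusted p = 0.022, at most 0.074 with 1 library left out). RPM1-interacting protein 4, a target of bacterial effectors guarded by resistance proteins in Arabidopsis, was at 25.8 ± 0.906 FPKM in EX 8 h and 19.9 ± 2.94 FPKM in EX 0 h, and at 25.1 ± 3.69 FPKM in MT 8 h and 41.5 ± 4.66 FPKM in MT 0 h. The 5 genes with the opposite form, falling in EX and rising in MT, were MYB82 and a serine hydroxymethyltransferase gene, described below, and ODORANT1-like (LOC101268562), LOC101257978 and LOC109119182, which were named after their values were seen. Of these LOC109119182 (chromosome 12, uncharacterized) passed in all 12 fits and stood at 7.87 ± 0.823 FPKM in EX 8 h and 13 ± 0.914 FPKM in EX 0 h, and at 13.6 ± 0.961 FPKM in MT 8 h and 7.49 ± 0.21 FPKM in MT 0 h.

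**Figure D3:**
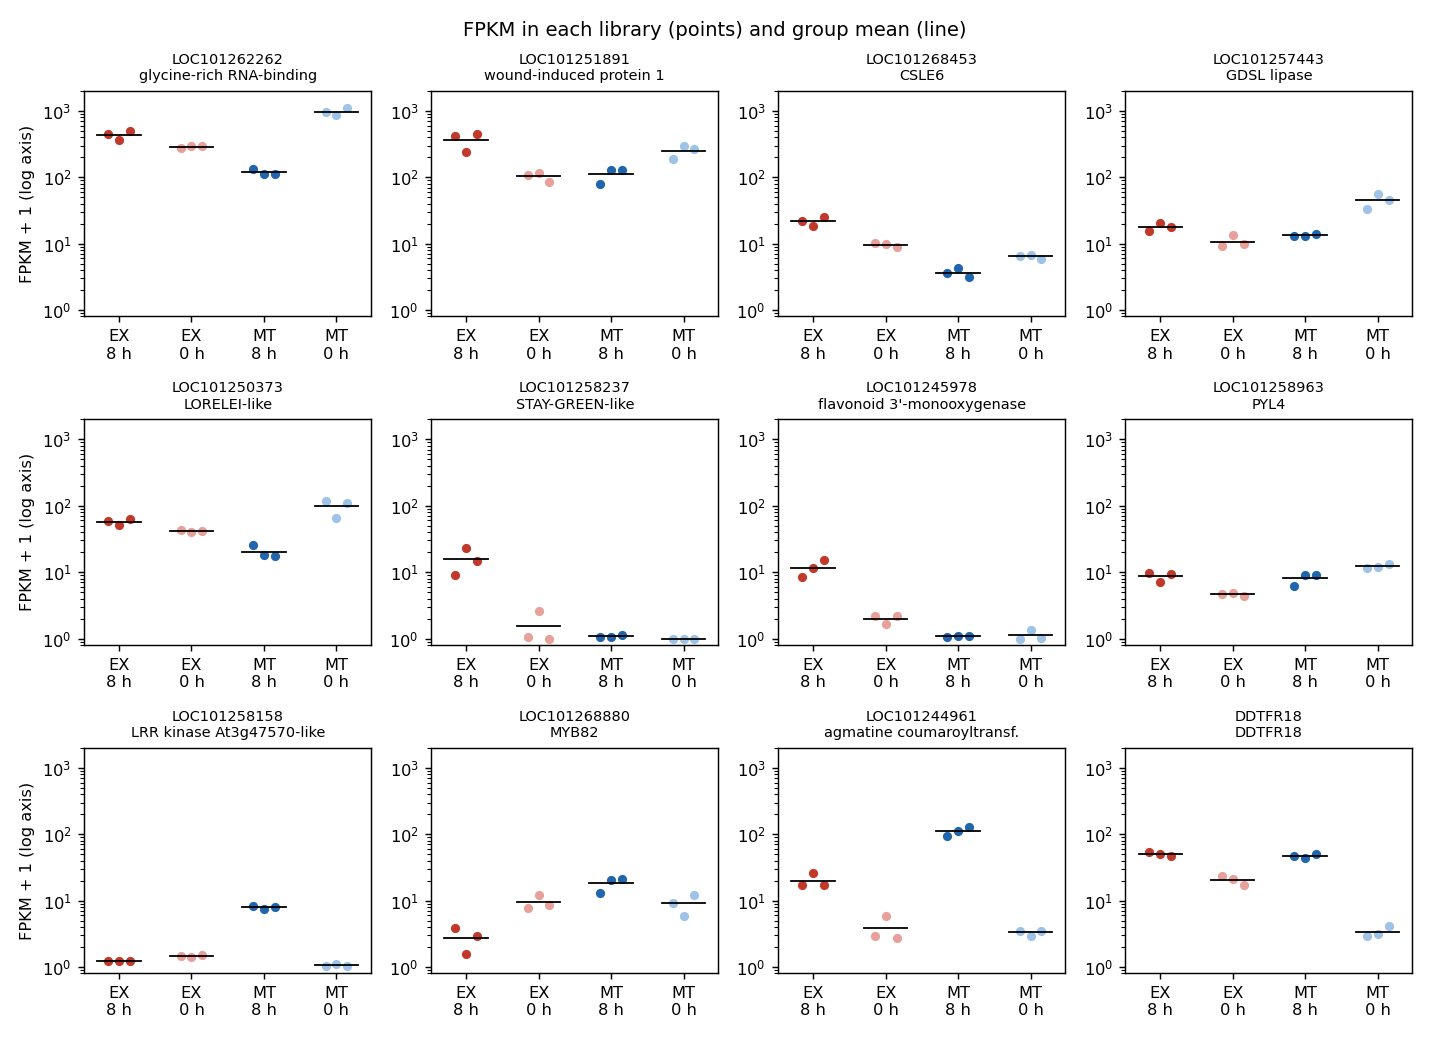
FPKM + 1 on a log axis in each library of EX 8 h, EX 0 h, MT 8 h and MT 0 h for 12 of the genes described, with the 3 replicates as points and the group mean as a line. The RNA-binding protein, wound-induced protein and LORELEI-like panels show EX above MT at 8 h and below it at 0 h, and the STAY-GREEN-like and monooxygenase panels show 1 group, EX 8 h, above the other groups.

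In 18 of the 35 genes apart at 8 h alone, the level at 8 h was higher in EX than in MT, by 0.85 to 3.75 on the log2 scale. These 18 are the higher genes of the class, and the sorting largely fixes this sign. The class of 35 numbered 9 without MT0r3, 13 without EX0r3 or MT8r2, and 18 to 37 without any other library. With 0.1 added to FPKM in place of 1, the class numbered 23. In 10 of the 18 the MT mean was under 1 FPKM at both hours. The largest difference was in a STAY-GREEN-like gene (LOC101258237, chromosome 12), whose family removes magnesium from chlorophyll at the start of its breakdown. EX leaves had 8.08, 21.8 and 13.7 FPKM at 8 h and 0.06, 1.6 and 0 FPKM at 0 h. MT leaves had 0.06, 0.06 and 0.12 FPKM at 8 h and 0, 0 and 0 FPKM at 0 h. All 3 EX libraries of 8 h were far above every other library, and MT stayed near 0 at both hours. The interaction reached 3.26 ± 0.519 (SE) (limma adjusted p = 0.023), and with 1 library left out its adjusted p was at most 0.074. In the authors' deposited table the log2 changes of this gene were 3.74 in EX and 2.30 in MT, a difference of 1.44. Adding 1 to FPKM shrinks changes near 0 FPKM, where MT lay. The flavonoid 3'-monooxygenase-like gene LOC101245978 (chromosome 8) encodes an enzyme type that adds a hydroxyl group to the flavonoid B ring. The 3 EX libraries held 7.4, 10.6 and 14.1 FPKM at 8 h, and those of 0 h held 1.17, 0.63 and 1.16. The 3 MT libraries held 0.06, 0.09 and 0.09 FPKM at 8 h, and those of 0 h held 0, 0.34 and 0.03. EX 8 h again stood alone, and the interaction of 2.57 ± 0.301 (SE) (limma adjusted p = 0.0036) passed in all 12 fits.

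Other genes of this class, named after their values were seen, were also higher in EX at 8 h, at lower levels. A gene named as a deacetoxyvindoline 4-hydroxylase (LOC101244810, chromosome 9), from the family of 2-oxoglutarate-dependent dioxygenases, was at 6.2 ± 0.694 FPKM in EX 8 h and 0.51 ± 0.213 FPKM in EX 0 h, and at 0.257 ± 0.146 FPKM in MT 8 h and 0.0467 ± 0.0451 FPKM in MT 0 h. The stellacyanin-like gene LOC104648249 (chromosome 7), of a copper-binding protein, was at 5.23 ± 1.39 FPKM in EX 8 h and 0.283 ± 0.145 FPKM in EX 0 h, and at 0.0467 ± 0.0808 FPKM in MT 8 h and 0 ± 0 FPKM in MT 0 h. Both passed in all 12 fits, with interactions of 2.00 ± 0.214 (SE) and 2.2 ± 0.246 (SE) (limma adjusted p = 0.0025 and 0.0028). A galactinol synthase gene (LOC101244339, chromosome 2), of the enzyme that starts raffinose synthesis, was at 3.79 ± 0.416 FPKM in EX 8 h and 0.167 ± 0.115 FPKM in EX 0 h, and at 0.887 ± 0.316 FPKM in MT 8 h and 0.05 ± 0.05 FPKM in MT 0 h. On the log2(FPKM + 1) scale it rose in both materials and more in EX, with an interaction of 1.2 ± 0.214 (SE) (limma adjusted p = 0.032, at most 0.096 with 1 library left out). The log2 changes in the authors' deposited table were 4.42 in EX and 3.68 in MT, a difference of 0.74. Adding 1 to FPKM shrinks the change of this gene more in MT, where both means were under 1 FPKM. A branched-chain aminotransferase gene (LOC101251085, chromosome 4) had 2.47, 1.34 and 2.81 FPKM in EX 8 h, and was listed at 0 in all EX libraries of 0 h and all MT libraries of 8 h and 0 h. Its interaction was 1.65 ± 0.242 (SE) (limma adjusted p = 0.015, at most 0.06 with 1 library left out). This gene, LOC101244810 and LOC104648249 met the filter of 1 FPKM in 3 libraries through EX 8 h alone. That largely fixes the direction of their interaction.

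The sorting likewise largely fixes the sign in the other 17 genes apart at 8 h alone. Their level at 8 h was lower in EX than in MT, by 0.47 to 2.79 on the log2 scale. The lowest adjusted p among them belonged to a leucine-rich repeat receptor-like kinase gene (LOC101258158, chromosome 6), a relative of the Arabidopsis gene At3g47570, whose class of membrane kinases perceives signals outside the cell. In the EX libraries it had 0.23, 0.22 and 0.23 FPKM at 8 h and 0.45, 0.41 and 0.52 at 0 h. In the MT libraries it had 7.33, 6.37 and 6.92 FPKM at 8 h and 0.03, 0.11 and 0.04 at 0 h. MT 8 h was above all other libraries, and EX was under 1 FPKM throughout. The gene met the filter of 1 FPKM in 3 libraries through MT 8 h alone, which largely fixes the direction of its interaction. The interaction was -3.14 ± 0.163 (SE) (95% interval -3.50 to -2.79, limma adjusted p = 8.5e-06), and it passed in all 12 fits.

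MYB82 (LOC101268880, chromosome 7), a transcription factor linked to trichome development in Arabidopsis, fell in EX and rose in MT. Its EX levels were 2.8, 0.57 and 1.89 FPKM at 8 h and 6.69, 11 and 7.65 FPKM at 0 h. Its MT levels were 12.1, 19.4 and 20.4 FPKM at 8 h and 8.26, 4.93 and 11 FPKM at 0 h. At 8 h every EX library was below every MT library, while at 0 h the materials overlapped. An interaction of -2.88 ± 0.492 (SE) was found (limma adjusted p = 0.027, at most 0.089 with 1 library left out). The agmatine coumaroyltransferase-like gene LOC101244961 (chromosome 6), whose product type joins a coumaroyl group to agmatine in defence amides of barley, rose in both. EX leaves had 16, 24.6 and 16.1 FPKM at 8 h and 1.95, 4.78 and 1.78 FPKM at 0 h. MT leaves had 93.2, 110.5 and 129 FPKM at 8 h and 2.48, 1.9 and 2.54 FPKM at 0 h. The materials overlapped at 0 h and were well apart at 8 h, with an interaction of -2.64 ± 0.375 (SE) (limma adjusted p = 0.014, at most 0.051 with 1 library left out).

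The EIN3-binding F-box gene LOC101248690 (chromosome 7), of a protein that marks the ethylene regulator EIN3 for breakdown in Arabidopsis, also rose less in EX. The 3 EX libraries held 45, 51.9 and 86 FPKM at 8 h, and those of 0 h held 30.9, 35.4 and 33.6. The 3 MT libraries held 112, 189 and 162 FPKM at 8 h, and those of 0 h held 22.6, 25.3 and 23.8. Both hours were free of overlap, with EX below MT at 8 h and above it at 0 h, though the 0 h gap did not pass (limma adjusted p = 0.42). Its interaction was -1.81 ± 0.322 (SE) (limma adjusted p = 0.032, at most 0.096 with 1 library left out). A transmembrane gene annotated as transmembrane protein 56 (LOC101246840, chromosome 7) passed in all 12 fits, at 36.4 ± 2.08 FPKM in EX 8 h and 5.11 ± 0.266 FPKM in EX 0 h, and at 67 ± 6.39 FPKM in MT 8 h and 3.49 ± 0.488 FPKM in MT 0 h. Chloroplast transketolase (LOC101265735, chromosome 5), of the Calvin cycle and the pentose phosphate pathway, was at 39.6 ± 2.09 FPKM in EX 8 h and 36.4 ± 1.65 FPKM in EX 0 h, and at 58.2 ± 5.57 FPKM in MT 8 h and 30 ± 1.67 FPKM in MT 0 h. Transketolase rose in MT and did not pass in EX (limma adjusted p = 0.28), with an interaction of -0.81 ± 0.134 (SE). A gene named as a 7-deoxyloganetin glucosyltransferase (LOC101248655, chromosome 12) rose in both and was at 8.66 ± 3.18 FPKM in EX 8 h and 0.177 ± 0.22 FPKM in EX 0 h, and at 26 ± 2.49 FPKM in MT 8 h and 0.0467 ± 0.0808 FPKM in MT 0 h. For these last 2 the limma adjusted p of the interaction was 0.026 and 0.037, and at most 0.077 and 0.11 with 1 library left out.

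The largest class held 43 higher genes in which the materials differed at 0 h alone. In all 43 the 0 h mean was lower in EX than in MT, by 0.54 to 3.58 on the log2 scale. Sorting by a positive interaction and a difference at 0 h alone largely fixes this sign. At 8 h the materials did not pass as different. An example is the cellulose synthase-like protein D3 gene (LOC101247596, chromosome 3), whose Arabidopsis relative is needed for root hair growth. In the EX libraries it had 3.55, 3.59 and 2.71 FPKM at 8 h and 7.29, 10.2 and 4.7 at 0 h. In the MT libraries it had 2.99, 3.2 and 2.68 FPKM at 8 h and 36.3, 236 and 102 at 0 h. The 3 MT 0 h libraries differed widely among themselves and all exceeded the EX 0 h libraries, with MT0r2 the highest. This gene had the largest estimate of the 112, 3.69 ± 0.709 (SE), with a limma adjusted p of 0.045 that reached 0.13 with 1 library left out. MT0r2 was the highest of the 3 MT 0 h libraries in 28 of the 43 genes, MT0r3 in 10 and MT0r1 in 5. The same was not counted over all genes tested, so these counts are not shown to be particular to the class. The size of the whole class apart at 0 h alone, 60 genes in both directions, rested on single libraries. It was 7 without MT0r3, 9 without EX0r3, 15 without MT8r2, 21 without MT8r1, 23 without EX8r1 and 27 to 39 without EX8r2, EX8r3, EX0r1, EX0r2 or MT8r3. It was 101 without MT0r1, 83 without MT0r2, and 88 without both libraries of replicate 2 at 0 h.

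In the same class Wfi1, a tomato NADPH oxidase gene named after its induction by whiteflies and described after its values were seen, fell in both materials. Its EX levels were 56.3, 53.3 and 60.9 FPKM at 8 h and 86.5, 82.5 and 78 FPKM at 0 h. Its MT levels were 51.4, 50.2 and 59.9 FPKM at 8 h and 206, 237 and 219 FPKM at 0 h. The EX and MT libraries overlapped at 8 h and were far apart at 0 h, and the interaction of 1.49 ± 0.142 (SE) (limma adjusted p = 0.0013) passed in all 12 fits. A lignin-forming anionic peroxidase gene (LOC101246783, chromosome 11) was at 14.3 ± 6.88 FPKM in EX 8 h and 12.8 ± 4.17 FPKM in EX 0 h, and at 5.8 ± 2.42 FPKM in MT 8 h and 51.1 ± 10.5 FPKM in MT 0 h. Putative calcium-binding protein CML19 (LOC101257927, chromosome 11) was at 9.34 ± 2.46 FPKM in EX 8 h and 44.1 ± 16.3 FPKM in EX 0 h, and at 6.14 ± 1.86 FPKM in MT 8 h and 153 ± 33.3 FPKM in MT 0 h. A calcium-dependent protein kinase gene (LOC101260188, chromosome 10) was at 57.4 ± 2.68 FPKM in EX 8 h and 57.6 ± 2.78 FPKM in EX 0 h, and at 54.4 ± 3.8 FPKM in MT 8 h and 109 ± 18.8 FPKM in MT 0 h. Their interactions were 3.05 ± 0.508 (SE), 2.36 ± 0.426 (SE) and 0.98 ± 0.165 (SE), with limma adjusted p of 0.026, 0.034 and 0.026 that reached 0.082, 0.087 and 0.083 with 1 library left out. The peroxidase and the kinase fell in MT without passing in EX, and CML19 fell in both.

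Caffeoyl-CoA O-methyltransferase, of the same class (LOC101265977, chromosome 2), a lignin enzyme, was at 17.5 ± 1.88 FPKM in EX 8 h and 52.2 ± 7.31 FPKM in EX 0 h, and at 10.8 ± 2.45 FPKM in MT 8 h and 117 ± 36.4 FPKM in MT 0 h. The auxin-regulated gene LOC543701 (chromosome 6) was at 20.7 ± 3.63 FPKM in EX 8 h and 38.9 ± 3.74 FPKM in EX 0 h, and at 14.3 ± 1.57 FPKM in MT 8 h and 104 ± 39.4 FPKM in MT 0 h. Both fell in both materials and less in EX, with interactions of 1.79 ± 0.299 (SE) and 1.83 ± 0.306 (SE). A receptor-like kinase gene annotated FLS2 (LOC101263667, chromosome 2), after the flagellin receptor of Arabidopsis, rose in both and was at 20.8 ± 3.85 FPKM in EX 8 h and 5.09 ± 0.115 FPKM in EX 0 h, and at 21.3 ± 4.95 FPKM in MT 8 h and 14.5 ± 2.11 FPKM in MT 0 h. The leucine-rich repeat kinase gene LOC101246212 (chromosome 11), a relative of the Arabidopsis gene At1g68400, fell in both and was at 0.733 ± 0.16 FPKM in EX 8 h and 28.8 ± 3.46 FPKM in EX 0 h, and at 0.81 ± 0.217 FPKM in MT 8 h and 77.3 ± 19.9 FPKM in MT 0 h. The interactions of these receptor kinases were 1.32 ± 0.249 (SE) and 1.31 ± 0.254 (SE). A gene annotated as coatomer subunit beta'-2 (LOC101248561, chromosome 3), of a coat of transport vesicles, rose steeply in both. EX leaves had 660.0, 439 and 331 FPKM at 8 h and 3.11, 3.21 and 2.31 FPKM at 0 h. MT leaves had 228, 134 and 286 FPKM at 8 h and 8.24, 9.7 and 7.41 FPKM at 0 h. EX was below MT at 0 h and above it at 8 h without overlap, and the interaction was 2.43 ± 0.398 (SE). The limma adjusted p of these 5 genes lay between 0.026 and 0.048, and with 1 library left out it reached between 0.077 and 0.14.

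In 17 lower genes the materials differed at 0 h alone, with EX above MT by 0.39 to 2.62 on the log2 scale. The sorting again largely fixes this sign. DDTFR18 (chromosome 4), annotated only as a ripening regulated protein, had the lowest adjusted p of these. The 3 EX libraries held 52.8, 50 and 46.1 FPKM at 8 h, and those of 0 h held 22.4, 20.4 and 16.2. The 3 MT libraries held 45.6, 42.6 and 49.1 FPKM at 8 h, and those of 0 h held 1.88, 2.09 and 3.19. The 8 h libraries overlapped, and every EX 0 h library was above every MT 0 h library. Its interaction of -2.50 ± 0.218 (SE) (limma adjusted p = 0.00066) passed in all 12 fits. Mitochondrial serine hydroxymethyltransferase (LOC101264818, chromosome 4), a photorespiration enzyme, was at 8.93 ± 0.71 FPKM in EX 8 h and 18.8 ± 5.66 FPKM in EX 0 h, and at 8.63 ± 0.14 FPKM in MT 8 h and 4.85 ± 1.49 FPKM in MT 0 h, so it fell in EX and rose in MT. A bHLH30-like transcription factor gene (LOC101260837, chromosome 7) was at 16.2 ± 2.17 FPKM in EX 8 h and 14.7 ± 2.21 FPKM in EX 0 h, and at 21.6 ± 2.7 FPKM in MT 8 h and 6.94 ± 1.41 FPKM in MT 0 h. Putative GATA transcription factor 22 (LOC101268354, chromosome 12), whose Arabidopsis relative promotes chloroplast development, was at 10.3 ± 2.29 FPKM in EX 8 h and 99.7 ± 20.7 FPKM in EX 0 h, and at 11.2 ± 1.12 FPKM in MT 8 h and 41.2 ± 5.86 FPKM in MT 0 h. These 3 had interactions of -1.72 ± 0.302 (SE), -1.38 ± 0.232 (SE) and -1.36 ± 0.254 (SE), limma adjusted p of 0.031, 0.026 and 0.04, and at most 0.091, 0.083 and 0.12 with 1 library left out.

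Of the 13 genes apart at both hours, the LORELEI-like gene LOC101250373 (chromosome 12) encodes a membrane-anchored protein whose Arabidopsis relatives escort the receptor kinase FERONIA. In the EX libraries it had 57.5, 49.8 and 61.2 FPKM at 8 h and 41.9, 39.3 and 40.7 at 0 h. In the MT libraries it had 24.4, 17.1 and 16.4 FPKM at 8 h and 115, 64.5 and 109.7 at 0 h. EX was above MT at 8 h and below it at 0 h, with no overlap at either hour. The interaction of 2.69 ± 0.295 (SE) (limma adjusted p = 0.0028) passed in all 12 fits. The 1-aminocyclopropane-1-carboxylate oxidase homolog LOC101246865 (chromosome 9), a dioxygenase related to the enzyme that makes ethylene, was higher in EX at both hours, at 8.36 ± 1.05 FPKM in EX 8 h and 1.35 ± 0.11 FPKM in EX 0 h, and at 1.25 ± 0.471 FPKM in MT 8 h and 0.327 ± 0.124 FPKM in MT 0 h. It had an interaction of 1.25 ± 0.238 (SE) (limma adjusted p = 0.045, at most 0.13 with 1 library left out). Of the 4 genes apart at neither hour alone, the rule names a clathrin assembly gene (LOC101268757, chromosome 4), at 20.8 ± 7.03 FPKM in EX 8 h and 15.2 ± 4.23 FPKM in EX 0 h, and at 8.28 ± 2.52 FPKM in MT 8 h and 37.4 ± 13.2 FPKM in MT 0 h, and a NAC domain gene (LOC101257801, chromosome 9), at 0.573 ± 0.174 FPKM in EX 8 h and 4.2 ± 0.574 FPKM in EX 0 h, and at 0.11 ± 0.101 FPKM in MT 8 h and 6.51 ± 0.475 FPKM in MT 0 h. Their interactions were 2.43 ± 0.448 (SE) and 1.04 ± 0.196 (SE), with limma adjusted p of 0.038 and 0.043, and at most 0.11 and 0.12 with 1 library left out.

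Some of the 112 genes were close to silent in 1 material. In 7 the mean was under 0.1 FPKM in both EX groups and at least 1 FPKM in an MT group, and in 8 the reverse held. The same was not counted over all genes tested, so this is not shown to be particular to the 112. The uncharacterized gene LOC101248555 (chromosome 12) was listed at 0 in all 6 EX libraries of 8 h and 0 h. MT leaves had 10.2, 12.1 and 8.78 FPKM at 8 h and 3.52, 1.54 and 2.51 FPKM at 0 h. The interaction was -1.72 ± 0.27 (SE) (limma adjusted p = 0.022, at most 0.074 with 1 library left out). A crocetin glucosyltransferase-like gene (LOC101248405, chromosome 7) was likewise listed at 0 in all 6 EX libraries, and in MT it had 0.25, 0.32 and 0.42 FPKM at 8 h and 6.74, 3.84 and 5.3 FPKM at 0 h. It passed in all 12 fits, with an interaction of 2.22 ± 0.231 (SE) (limma adjusted p = 0.0022). The crocetin glucosyltransferase-like gene met the filter of 1 FPKM in 3 libraries through MT 0 h alone, which largely fixes that direction. New gene models made up 471 of the 17953 genes tested. Of the 7 genes near 0 in EX, 5 were such models, without a name. Some of these 5 models overlap. A pair on chromosome 12 shares positions 47251591 to 47256479, and a pair on chromosome 8 shares the start 59198392 and passed in opposite directions. Overlapping models are counted separately among the 7, among the 112 and by chromosome. The genes of this paragraph were chosen after their values were seen.

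The positions of the 112 genes were looked at after their values were seen, and no test was made of them. Chromosomes 7 and 12 held 14% of the tested genes and 35 of the 112. Among the 35 genes apart at 8 h alone, 9 lay on chromosome 7 and 10 on chromosome 12, together 54.3% of that class. Over the alternative settings and left-out libraries, this share was 29.3% to 61.1%, the lowest without both libraries of replicate 2 at 0 h. By chromosome, the share of tested genes that passed the interaction was 1.04% on chromosome 7 and 1.79% on chromosome 12, and 0.339% to 0.82% on the other 10. Genes that differed between EX and MT at 8 h made up 3.58% and 5.72% of those tested on chromosomes 7 and 12, and 0.483% to 1.45% on the other 10. At 0 h, before salt, the shares were 4.33% and 6.83% on chromosomes 7 and 12, and 1.61% to 3.67% on the other 10. In the 2 h libraries, which the interaction did not use, EX and MT differed in 15.2% and 17% of the genes tested on chromosomes 7 and 12, against 11.7% over all genes and 8.33% to 12.3% on the other 10.

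On chromosome 7, 9 of the 14 genes that passed started between positions 2090766 and 3205225, as deposited (the sources used here name no genome build). The ends of that stretch were set at passing genes after the values were seen, which in part fixes how dense it is. On all of chromosome 7, 3.58% of tested genes differed between EX and MT at 8 h and 4.33% at 0 h. Over all genes tested the shares were 1.35% and 2.9%. The stretch held 78 tested genes, of which 19 differed between EX and MT at 8 h and 21 at 0 h. Its 9 genes include MYB82 (2710040 to 2711169), the stellacyanin-like gene (2836062 to 2837871), the crocetin glucosyltransferase-like gene (2960786 to 2962418) and the EIN3-binding F-box gene (2976030 to 2979542). An ANXUR1 receptor kinase gene (LOC101261834, 3197499 to 3200524) and a DETOXIFICATION 29-like transporter gene (LOC101251790, 3205225 to 3212556) followed. Of the 19 genes in the stretch that differed at 8 h, 9 were higher in EX, so the differences there ran in both directions. On chromosome 12 the genes lay in several places, among them the E6 gene (5755034 to 5760046) and the LORELEI-like gene (6001879 to 6025496), and the thaumatin-like (62311647 to 62312572) and STAY-GREEN-like genes (62426594 to 62428948). All 101 of the 112 genes with an ID in a reference table of another assembly had the same chromosome there.

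**Figure D4:**
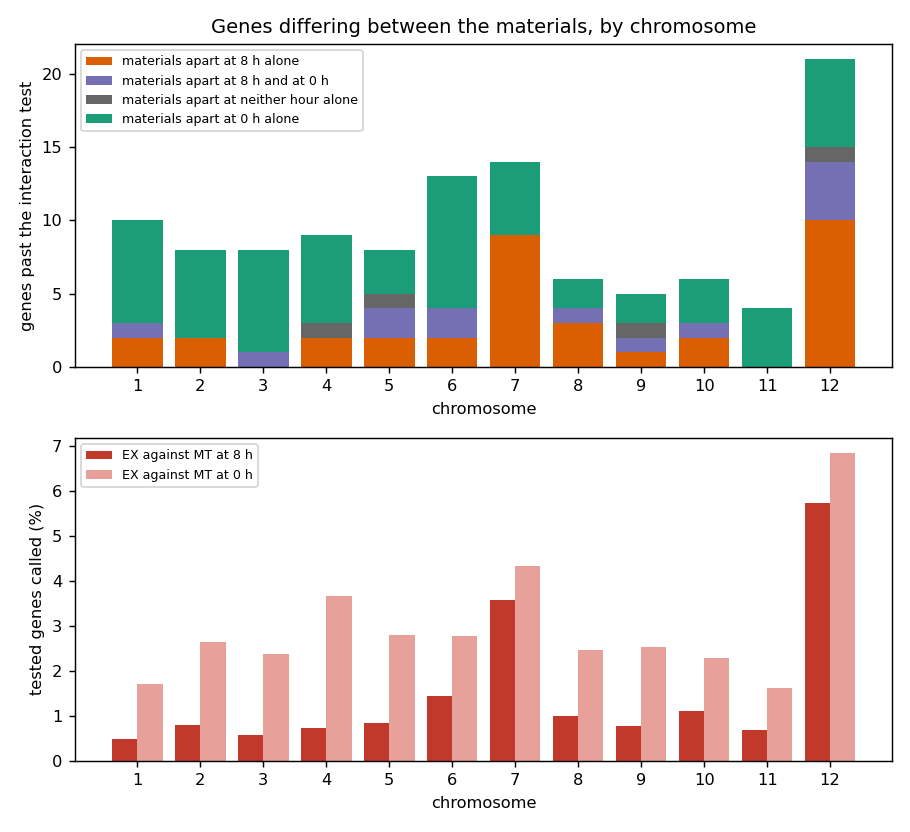
Upper panel, number of the 112 genes on each chromosome, stacked by the hour at which the materials passed as different. Lower panel, percentage of tested genes that differed between EX and MT at 8 h and at 0 h on each chromosome; chromosome 12 reaches 5.72% at 8 h and chromosome 7 3.58%, against at most 1.45% elsewhere, and at 0 h they reach 6.83% and 4.33%, against at most 3.67% elsewhere.

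The 6 libraries of 2 h allowed the same genes to be looked at in samples that did not enter the interaction. Of the 112 genes, 98 passed the filter on low values at 2 h, and 39 of them differed between EX and MT, where 11.7% of all 16151 genes tested did (5.38% higher and 6.35% lower in EX). For the genes apart at 8 h alone, 26 could be tested, 15 passed, and all 15 differed in the direction seen at 8 h. That count was 10 without EX2r3, and 11 to 18 without any other library of 2 h. A gene under 1 FPKM in every 2 h library of 1 material met the 2 h filter through the other, which fixes its sign. The shared direction of such genes is thus no support for their 8 h difference. For the genes apart at 0 h alone, 55 could be tested and 12 passed, while 24 of the 55 had the sign seen at 0 h.

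Several genes already named differed at 2 h. The STAY-GREEN-like gene had 48.5 ± 4.17 FPKM in EX and 0.43 ± 0.06 FPKM in MT (limma adjusted p = 2.4e-06) at 2 h. The E6 gene had 44.4 ± 6.1 FPKM in EX and 0.717 ± 0.103 FPKM in MT (limma adjusted p = 7.7e-06), and the dioxygenase gene LOC101244810 had 33.5 ± 12 FPKM in EX and 0.437 ± 0.0764 FPKM in MT (limma adjusted p = 0.0002). In each, EX was higher at 2 h than at 8 h. Their MT libraries of 2 h were all under 1 FPKM. They thus met the 2 h filter through EX alone, which fixes the sign of the difference. The coumaroyltransferase-like gene LOC101244961 had 2.59 ± 1.52 FPKM in EX and 23.9 ± 11.8 FPKM in MT at 2 h and the EIN3-binding F-box gene 34.1 ± 1.25 FPKM in EX and 92.9 ± 22.6 FPKM in MT (limma adjusted p = 0.0098 and 0.0038). Both were lower in EX, as at 8 h. The RNA-binding protein gene LOC101262262 was lower in EX at 2 h, at 237 ± 28.9 FPKM in EX and 423 ± 28.2 FPKM in MT (limma adjusted p = 0.0078), the direction it had at 0 h. Wound-induced protein 1 and the LORELEI-like gene did not pass at 2 h (limma adjusted p = 0.18 and 0.75), with 42.8 ± 5.95 FPKM in EX and 54.8 ± 8.33 FPKM in MT and 9.24 ± 0.361 FPKM in EX and 10 ± 2.1 FPKM in MT.

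**Figure D5:**
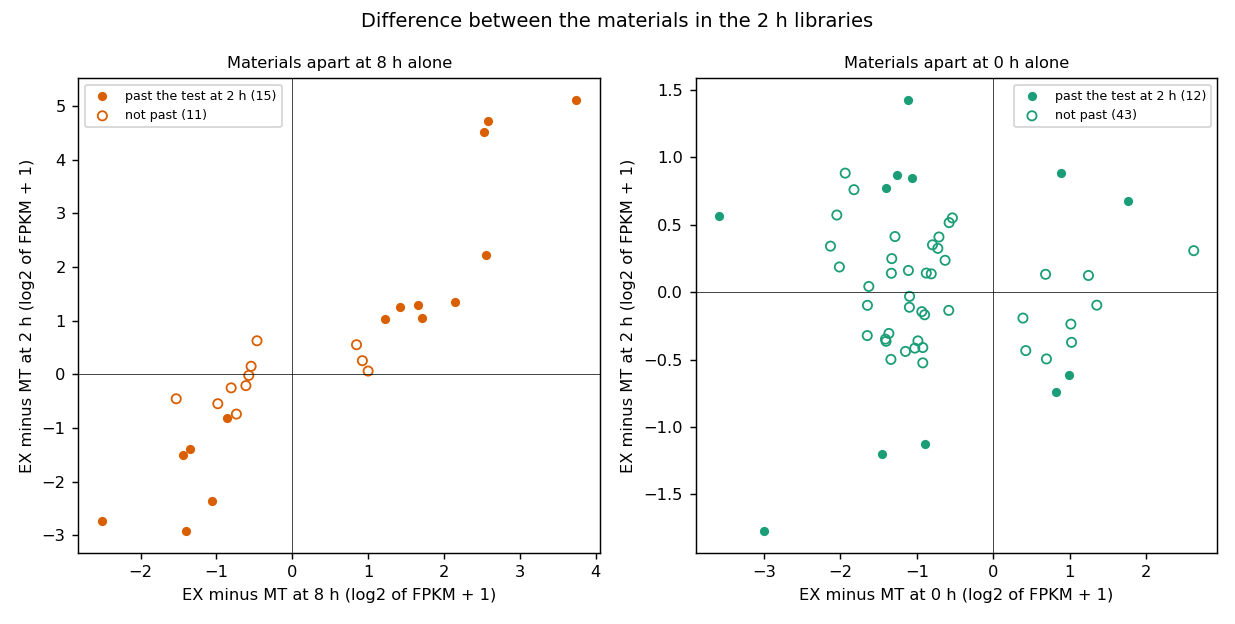
Difference Micro-TOM-EX minus Micro-TOM at 2 h (vertical axes) against the difference at 8 h for genes apart at 8 h alone (left, 26 tested) and at 0 h for genes apart at 0 h alone (right, 55 tested), in log2 of FPKM + 1; filled points passed at 2 h. On the left all 15 filled points have the sign they have at 8 h, and on the right the filled points lie on both sides of 0. In both panels, the filter fixes the 2 h sign of a gene under 1 FPKM in every 2 h library of 1 material.

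Of 39 lists of genes by function, 16 held a member past the interaction and 23 held none, where 0.624% of all genes tested passed (0.412% higher and 0.212% lower). The counts are descriptions beside that share, and no list is called particular from them. Those with none had 6 to 183 tested members and medians of -0.41 to 0.22 on the log2 scale. Dehydrins and other late embryogenesis abundant proteins, which guard cells against drying, had 0 of 10 tested members past the interaction. All 10 rose in EX, against 35.4% of all genes tested, and all 10 rose in MT, against 37%, and their median interaction was 0.12, against -0.08 over all genes tested. Likewise 0 of 70 clade A and related type 2C protein phosphatases, 0 of 41 heat shock proteins, 0 of 50 WRKY factors, 0 of 22 clock genes, 0 of 43 proteasome subunits and 0 of 183 cytosolic ribosomal proteins passed. No member passed among 68 photosystem and light-harvesting proteins either, 57 of which fell in EX, against 36% of all genes tested, and 54 in MT, against 33.9%, with a median interaction of -0.41. Lists with a member past the interaction held 1 to 3 each, such as 1 of 23 genes of abscisic acid synthesis and perception (PYL4). Leucine-rich repeat kinases held 3 of 137 (2 higher and 1 lower), calcium signalling 2 of 115, phenylpropanoid and flavonoid synthesis 2 of 93 and ethylene synthesis and reception 2 of 35 (1 higher and 1 lower). A single higher member each stood among 105 auxin response genes, 74 pathogenesis-related proteins, 53 lipid transfer and wax genes, 48 genes of trehalose, raffinose and starch metabolism, 41 class III peroxidases, 37 NAC factors and 34 chlorophyll and carotenoid genes. A single lower member each stood among 82 AP2/ERF, 69 bHLH and 55 MYB factors and 19 carbon fixation enzymes.

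The core genes of salt tolerance did not pass the interaction, with intervals of unequal width. TAS14, a dehydrin gene induced by abscisic acid, had 11909.8, 9386 and 7367 FPKM in EX 8 h and 2.15, 152 and 4.14 in EX 0 h, and 7877, 9221 and 10765 in MT 8 h and 0.27, 1.74 and 1.51 in MT 0 h. The MT 0 h libraries were all low and EX0r2 was far above the other EX 0 h libraries, and the 95% interval of the interaction ran from -6.06 to 0.67 around -2.69. The sodium transporter gene HKT1;2 fell in both materials, to 1.01 FPKM in EX 8 h, against 7.17 in EX 0 h, and to 0.987 in MT 8 h, against 6.22 in MT 0 h. Its interaction was -0.18, with a 95% interval from -0.95 to 0.59. The dioxygenase gene NCED5 (LOC100316877), of abscisic acid synthesis, had an interaction of -0.43 with an interval from -0.86 to -0.01, and limma adjusted p = 0.43. Pyrroline-5-carboxylate synthase genes start proline synthesis, and their interactions were 0.01 for PRO2 (interval -0.24 to 0.25), -0.37 for LOC101244293 (-1.12 to 0.38) and 0.13 for LOC101250107 (-0.32 to 0.57). The sodium/hydrogen exchanger gene LOC101263995 had 0.19 (-0.33 to 0.70), and NCED6 (LOC101246826) was too low to be tested.

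Markers of other cell types were checked beside these results. No marker passed the interaction among 28 leaf mesophyll, 7 guard cell, 4 trichome, 4 phloem, 2 xylem, 9 root, 34 flower and anther and 6 meristem genes tested, and 1 of 9 fruit markers did, DDTFR18. At 8 h the summed guard cell level was 64.2 to 75.5 FPKM in EX and 80.2 to 93.2 in MT, and at 0 h it was 81.1 to 95.9 in EX and 93.6 to 98.8 in MT, with at most 1 of 8 genes at 0 in a library. The summed root marker level was 71.6 to 100.04 FPKM in EX 8 h and 13.1 to 15.7 in EX 0 h, and 52.4 to 66.7 in MT 8 h and 12.8 to 13.6 in MT 0 h, with 6 to 11 of 20 genes at 0. The summed trichome level was 127 to 321 FPKM in EX 8 h and 43.1 to 58.6 in EX 0 h, and 98.6 to 185 in MT 8 h and 34.5 to 41.7 in MT 0 h, with 7 to 11 of 19 genes at 0. Guard cell and root sums thus did not overlap between the materials at 8 h, and trichome sums did not overlap at 0 h. The trichome sum came mostly from 1 gene, ASH1, with 308.91 of 316.82 FPKM in EX8r1 and 36.93 of 43.09 FPKM in EX0r1. Few genes also gave much of the other sums. For guard cells, LOC101257435 gave 42.09 of 64.19 FPKM in EX8r1 and 47.45 of 93.23 in MT8r1. For roots, LOC101246755 and LOC101257730 gave 20.41 and 17.29 of 71.63 FPKM in EX8r1, and 14.85 and 11.42 of 52.39 in MT8r1. The part of these cell types in the results above was not tested.

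The authors' deposited table gave fold changes for both materials in 105 of the 112 genes. In 103 of these, the difference of the log2 fold changes of the authors' deposited table had the sign of the interaction. The exceptions were LOC101246488 and LOC101246590. The first was called higher, with -3.79 in EX and -2.90 in MT in the authors' deposited table. The second was called lower, with -3.81 in EX and -4.80 in MT. The authors' fold changes came from the libraries that selected the 112 genes. The shared sign thus follows largely from the selection and lends it no support. For the RNA-binding protein gene LOC101262262, the authors' deposited table gave 0.68 in EX and -3.05 in MT for 8 h against 0 h.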

How the data were processed

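RNA-seq of leaf gave FPKM values per gene, deposited by the authors. The submitters' processing notes name DESeq2 1.4.5, RSEM 1.2.12, Bowtie2 2.2.5 and HISAT2 2.0.4. The sources used here name no genome build. The deposited table also held the authors' log2 fold changes and q-values, used only to set their log2 fold changes beside the results. It held 18 further columns of per-sample values that were not used.

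In R 4.3.3, limma 3.58.1 with a mean-variance trend was fitted to log2(FPKM + 1) in 12 libraries and 4 groups, for genes with at least 1 FPKM in 3 libraries, with Benjamini-Hochberg adjustment over all genes tested and a threshold of 0.05. A fold change on this scale understates the change of genes at low levels. Where 1 material is near 0 FPKM, this can also create or enlarge an interaction. A gene that met the filter through 1 group alone has the direction of its interaction largely fixed by that filter. EX and MT at 2 h were fitted alone, in 6 libraries. Scripts were tested on simulated data. Depth was estimated from steps between low FPKM values, and 94.1% to 96.1% of the low values examined lay within 0.15 of a whole number of fragments. Near-identical gene copies and overlapping models may share reads.

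Deviations of same-numbered libraries from their group means correlated at 0.481, 0.443 and 0.13 between EX 0 h and MT 0 h, over 0.1 in each, so the numbers were taken to pair those libraries. In the other pairs of groups at least 1 correlation was not over 0.1, as between EX 8 h and MT 8 h (-0.382, 0.015 and -0.037). The labels name no source of the pairing. The fit has no block, and the report gives the block within each hour beside it. Genes are named by a rule: passing, with 1 direction in all fits that leave out a library, a mean of 5 FPKM in a group and a descriptive name. Among these it takes the 10 largest estimates in each direction, the 6 of lowest adjusted p that moved in opposite directions, and up to 3 per gene list, and beside them the core salt genes. Members, 39 gene lists, 9 marker lists and the rule were chosen with earlier results of these data known. Alternatives were scaling, filter, pseudocount, replicate block, all 18 libraries, a 2-fold minimum and left-out libraries. No sequence was used here, so promoters were not examined.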

Additional observations from a re-analysis of the deposited data

Results flagged for a closer look

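Every gene named by the rule was marked because its change from 0 h to 8 h differed between EX and MT in the test of the difference itself, on the log2 scale. The positive estimates were 3.69 for the D3 gene LOC101247596, 3.61 for the RNA-binding protein LOC101262262, 3.26 for STAY-GREEN-like LOC101258237, 3.05 for the peroxidase LOC101246783, 2.96 for wound-induced protein LOC101251891, 2.69 for LORELEI-like LOC101250373 and 2.57 for the monooxygenase-like LOC101245978. Next came 2.48 for the GDSL gene LOC101257443, 2.43 for both the coatomer gene LOC101248561 and the clathrin assembly gene LOC101268757, 2.38 for the thaumatin-like LOC104645134, 2.36 for CML19 (LOC101257927) and 2.00 for the E6 gene LOC101268453. Lower estimates were 1.83 for LOC543701, 1.79 for LOC101265977, 1.53 for PYL4, 1.32 for LOC101263667, 1.31 for LOC101246212, 1.25 for LOC101246865, 1.21 for LOC101246151, 1.04 for LOC101257801 and 0.98 for LOC101260188.

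The negative estimates were -3.14 for the receptor kinase LOC101258158, -2.88 for MYB82, -2.64 for LOC101244961, -2.50 for DDTFR18, -1.81 for LOC101248690, -1.72 for LOC101264818 and -1.69 for LOC101248655. The remaining ones were -1.38 for LOC101260837, -1.36 for LOC101268354, -1.31 for LOC101246840 and -0.81 for transketolase LOC101265735.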

How the results depend on the processing

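No named gene changed direction under any alternative run. Each named or core salt gene was counted once in each fit. With 1 library left out, 296 such cases passed or failed as before and 184 no longer passed. In the other settings the counts were 296 and 62. The cases that stayed as before include the core salt genes, which did not pass in the main fit, and all losses were among the genes that had passed. With all 18 libraries 249 genes passed (150 higher, 99 lower), and with a replicate block within each hour 37 (28 higher, 9 lower). With a plain replicate block 86 passed, 71 of them among the 112. With a pseudocount of 0.1, 84 passed, 82 of them among the 112, and 10 of the 33 named genes did not pass. Lower genes numbered 58 with no filter on low values and 58 without the libraries numbered 2 of 0 h, which also gave 427 genes between EX and MT at 8 h. That count was 153 with a filter of 5 FPKM. List members that passed numbered 21, and 13 with a pseudocount of 0.1, 40 with 18 libraries, 13 with the replicate block and 6 with the block within each hour. Under a 2-fold minimum, 7018 genes changed in EX, 6866 in MT, and EX and MT differed in 131 genes at 8 h, 235 at 0 h and 614 at 2 h, with 25 of the 112 at 2 h. Scaling by median ratios shifted the median interaction of all genes by 0.07.

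With 1 library left out, 21 to 148 genes passed, 17 to 110 higher and 4 to 57 lower. The ranges were 11901 to 13165 for EX, 11895 to 13019 for MT, 122 to 307 between EX and MT at 8 h, 200 to 541 at 0 h and 561 to 3548 at 2 h. Of the 112, 23 to 51 passed at 2 h, and 3 to 22 list members passed the interaction. The fits without 1 of the 2 h libraries were added after the data were seen. The cause of these changes was not tested, and genes at low FPKM rest on few fragments.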
